A study of Homo sapiens with 9 samples.

Results

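The genes described here encode the constitutive 26S proteasome and proteins that build it, 36 of the 58676 genes in the count table, chosen by gene name. They were grouped as 7 alpha and 7 beta subunits of the 20S core, 9 subunits of the 19S base and 8 of the 19S lid, the activator PSME4 (PA200), and 4 assembly chaperones. The data are RNA-seq read counts from 9 libraries of HaCaT cells, human skin keratinocytes that immortalised spontaneously. The cells were kept for 14 h with 1% DMSO as control, with CDDO-Me at 250 nM or with PRL-295 at 10 µM, and each treatment has 3 libraries. CDDO-Me, also called bardoxolone methyl, is a synthetic triterpenoid and an electrophile known to stabilise NRF2, which switches on antioxidant genes. PRL-295 is a code name, and the title of the study is about NRF2 activators that are not electrophiles. The labels list DMSO for the control cells only and do not say whether the cells with a compound also had it. Nor do they say whether the 3 libraries of a treatment were separate cultures, so p-values measure the spread between these samples, which may be technical.

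The proteasome is the protease that degrades most ubiquitin-tagged proteins. Its core is a barrel of stacked rings: outer rings of alpha subunits gate the entrance, and inner rings of beta subunits hold the cutting sites, of which PSMB5, PSMB6 and PSMB7 carry the active ones. The 19S cap sits on the barrel's end, where its base unfolds the substrate with a ring of ATPases and its lid removes the ubiquitin. Subunit genes are known to be induced together by the transcription factor NFE2L1 (NRF1) when proteasome activity falls, and several have been described as responding to NRF2, which binds the same kind of DNA element.

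Library totals ran from 23383800 to 32942156 counted reads. CDDO-Me 1 had the fewest genes with any count, 14543, and CDDO-Me 2 the most, 23271. All 10 keratinocyte markers averaged at least 1 CPM (counts scaled to a common library total), with summed levels of 16430 to 17910 CPM with DMSO, 20880 to 23730 with CDDO-Me and 13660 to 14780 with PRL-295. The summed markers of fibroblasts (COL3A1, DCN and LUM at 0), melanocytes, immune and endothelial cells reached at most 13.1 CPM in any library. The part of the keratinocyte marker levels in the proteasome results was not tested. The NRF2 target HMOX1, heme oxygenase, was 32.5-fold higher with CDDO-Me and 3.78-fold higher with PRL-295, with edgeR adjusted p of 1.78e-07 and 0.000191. TXNRD1, thioredoxin reductase, was 4.32-fold and 3.92-fold higher, with edgeR adjusted p of 4.01e-06 and 1.2e-05. Libraries also differed in how their deviation from the mean of all 9 followed the GC content of the genes. That correlation across genes was 0.206 to 0.271 in the DMSO libraries, -0.0168, -0.546 and -0.143 in CDDO-Me 1 to 3, and -0.333, 0.269 and -0.0750 in PRL-295 1 to 3.

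Levels of these transcripts were uneven: with DMSO, 19 of the 36 genes lay at or above the 90th percentile of all tested genes, 28 at or above the 75th, and 3 below the 50th. Levels between genes are compared here in the authors' FPKM (reads scaled by gene length and by library total). The length includes bases outside the coding part: 7482 bases for PSMC6, with 1237 coding, but 1179 for PSMB3, with 615 coding. The order of genes depends on this scaling. In CPM, which leave length out, PSMD2 had a mean of 1043 with DMSO and PSMB7 of 459. The part of gene length in the FPKM differences between genes and classes was not tested. With DMSO, the beta subunits had the highest class median, 157 FPKM, and every beta subunit lay between 32.7 FPKM (PSMB2) and 258 FPKM (PSMB7). The 3 catalytic subunits were all high: PSMB7, the trypsin-like site, at 258 ± 16.6 FPKM (SD, n = 3), PSMB5, the chymotrypsin-like site, at 161 ± 13.2, and PSMB6, the caspase-like site, at 149.9 ± 12.0. The 19S base had a median of 35.7 FPKM, from 5.68 (PSMC6, an ATPase) to 192 (PSMD2, a large scaffold subunit). The lid had a median of 37.3 FPKM, from 5.78 (PSMD6) to 72.7 (PSMD3). PSME4, a cap that opens the core without ATP or ubiquitin, was at 6.68 ± 0.87 FPKM. The assembly chaperones ran from PSMG2 at 6.26 ± 1.38 FPKM to POMP at 26.1 ± 7.44, with PSMG3 at 25.2 ± 3.17 and PSMG1 at 14.0 ± 3.37.

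The alpha subunits had the widest spread in level, but only with PSMA1, PSMA2 and PSMA6 included. Without these 3, the highest alpha subunit was 23.7 times the lowest, beside 33.8 times in the 19S base. PSMA7 was at 251 ± 21.5 FPKM with DMSO, above 99.2% of the tested genes, and PSMA3, PSMA5 and PSMA4 followed at 24.4, 17.6 and 10.6 FPKM. PSMA1, PSMA6 and PSMA2 were at 0.71, 0.32 and 0.08 FPKM. The next lowest of all 36 genes was PSMC6 at 5.68 FPKM, and its DMSO libraries did not overlap those of PSMA1. The counts behind these 3 genes were small in all 9 libraries. PSMA1 had 68, 20 and 114 counts with DMSO, 239, 108 and 74 with CDDO-Me and 69, 73 and 98 with PRL-295. PSMA2 had 16, 0 and 20 with DMSO, 0, 77 and 45 with CDDO-Me and 54, 24 and 23 with PRL-295. PSMA6 had 60, 71 and 49 with DMSO, 154, 60 and 56 with CDDO-Me and 33, 25 and 63 with PRL-295. A count of 0 allows up to 0.0911 to 0.128 CPM, depending on the library, at 3 counts and for counting error only.

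These 3 alpha subunits were also the only members that shared exonic bases with another gene on the same strand. In GENCODE release 29, 88.6% of the coding bases of PSMA1 (hg38 chr11:14504874-14643635, minus strand) also belonged to exons of RP11-140L24.4. For PSMA2 (chr7:42916857-42932223, minus strand) the share was 97.1%, with RP11-111K18.1. For PSMA6 (chr14:35278633-35317493, plus strand) it was 70.4%, with RP11-561B11.2. The other 33 members shared 0% of their coding bases with a gene on the same strand. The overlapping genes themselves averaged 0, 1.22 and 2 counts per library. How the authors' counting treated reads that fit several genes was not given in the sources used here, and its part in these low values was not tested. The values of PSMA1, PSMA2 and PSMA6 are therefore uncertain as levels of those transcripts, and medians that include them are also given without them, a choice made after their values were seen.

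**Figure D1:**
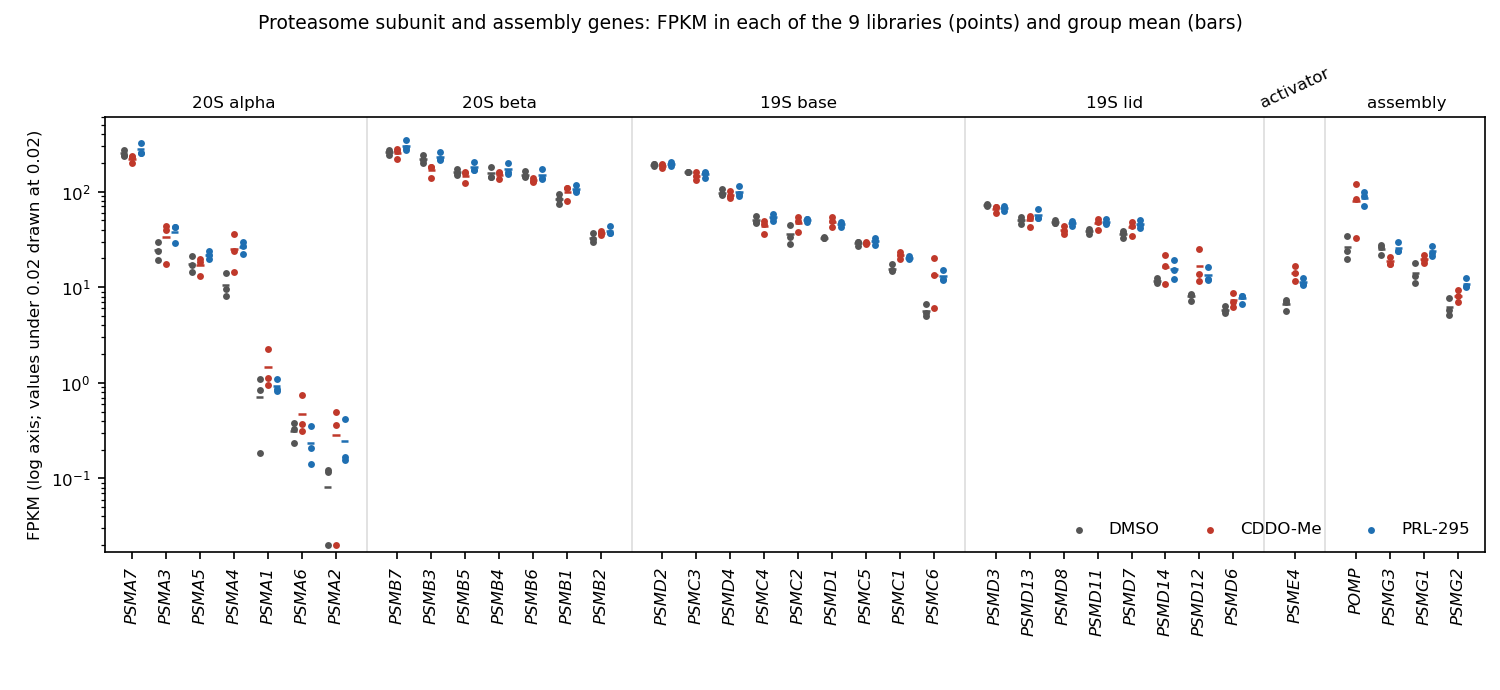
FPKM (log axis) of the 36 genes in each of the 9 libraries, ordered within class by their level with DMSO; points are libraries and short bars are group means of 3. The beta subunits sit between 32.7 and 258 FPKM with DMSO, while PSMA1, PSMA6 and PSMA2 sit below 1 FPKM; 2 values of 0 for PSMA2 (DMSO 2 and CDDO-Me 1) are drawn at 0.02.

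Neighbouring genes in the order of FPKM with DMSO seldom separated. In 27 of the 35 neighbouring pairs the 3 libraries of one gene overlapped those of the next. The 8 steps without overlap included PSMB3 (218 ± 20.8) above PSMD2 (192 ± 5.36) and PSMD2 above PSMC3 (161 ± 0.75), an ATPase. PSMB7 and PSMA7 at the top overlapped each other, as did, in sequence, PSMC3, PSMB5, PSMB4 and PSMB6.

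With CDDO-Me, 7 of the 36 genes rose against DMSO and 0 fell (edgeR quasi-likelihood test, Benjamini-Hochberg adjusted p below 0.05 over 16239 genes). All 36 had passed the filter on low counts. Over all tested genes, 4.65% rose and 4.57% fell in that comparison. The genes that rose were the maturation chaperone POMP, the alpha subunit PSMA4, the activator PSME4, the base subunits PSMC6, PSMD1 and PSMC1, and the lid subunit PSMD12. None of the 7 beta subunits was called. The median log2 fold change of the 36 genes was 0.23 (0.17 without PSMA1, PSMA2 and PSMA6), beside 0.01 over all tested genes, and 21 of the 36 had a positive value. At an unadjusted edgeR p below 0.05, 11 were higher and 3 lower, beside 13.4% and 12.6% of all tested genes. In bulk RNA of this kind, a change in the number of cells with a transcript and a change in transcript per cell cannot be told apart.

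POMP, which holds the half-built core together until its beta subunits are cut into active form, had the largest called change. Its levels were 27.8, 35.0 and 48.6 CPM with DMSO and 46.7, 171.7 and 119 CPM with CDDO-Me. CDDO-Me 1 lay inside the DMSO range, and the other CDDO-Me libraries lay well above it. The fit gave a 3.03-fold higher level (log2 1.60, 95% interval 0.76 to 2.43, edgeR adjusted p 0.0271). The other assembly chaperones, which pair up to build the alpha ring, did not pass. PSMG1 was at 27.6, 33.5 and 44.3 CPM with DMSO and 48.6, 54.8 and 44.4 with CDDO-Me (log2 0.49, edgeR adjusted p 0.127). PSMG2 had a log2 fold change of 0.38 (edgeR adjusted p 0.241). PSMG3 had the lowest value of all 36 genes, log2 -0.43 (95% interval -0.79 to -0.08, edgeR adjusted p 0.116), with 41.5, 52.6 and 53.4 CPM with DMSO and 34.2, 34.3 and 40.6 with CDDO-Me.

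PSME4 was the member called most firmly. Its levels were 57.3, 76.1 and 71.2 CPM with DMSO and 118, 170.1 and 144 CPM with CDDO-Me. Every CDDO-Me library exceeded every DMSO library. The change was 2.11-fold (log2 1.08, 95% interval 0.74 to 1.42, edgeR adjusted p 0.0025).

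In the 20S core, PSMA4 was the only subunit called. It was at 55.8, 67.4 and 98.4 CPM with DMSO and at 101, 252 and 166 CPM with CDDO-Me. The lowest CDDO-Me library stood just above the highest DMSO library, and the others were clear of it. The change was 2.34-fold (log2 1.23, 95% interval 0.58 to 1.88, edgeR adjusted p 0.0286). The remaining alpha subunits ran from PSMA7 (log2 -0.19, edgeR adjusted p 0.380) to PSMA2 (log2 1.82, interval -1.35 to 4.995), a gene of few counts. The class median was 0.59, or 0.21 over the 4 alpha subunits other than PSMA1, PSMA2 and PSMA6. The beta subunits had a median of -0.07, from PSMB3 (log2 -0.38, 95% interval -0.68 to -0.08, edgeR adjusted p 0.110) to PSMB1 (log2 0.24, edgeR adjusted p 0.320), with PSMB2 and PSMB4 at 0.17 and -0.07. The intervals of the catalytic subunits were -0.43 to 0.17 for PSMB5, -0.46 to 0.08 for PSMB6 and -0.30 to 0.25 for PSMB7, so a change of more than 1.5-fold lay outside each.

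The 19S base held 3 of the called genes. PSMC6, an ATPase of the base ring, was at 36.6, 40.8 and 49.5 CPM with DMSO and at 45.2, 150.3 and 100.5 CPM with CDDO-Me. As for POMP, CDDO-Me 1 lay inside the DMSO range. PSMC6 was 2.33-fold higher (log2 1.22, 95% interval 0.50 to 1.94, edgeR adjusted p 0.0438). PSMD1, a large scaffold subunit, was at 167, 171 and 172 CPM with DMSO and at 219, 282 and 251 CPM with CDDO-Me. PSMD1 had a narrow DMSO range, with all CDDO-Me libraries above it. Its change was 1.47-fold (log2 0.56, 95% interval 0.31 to 0.81, edgeR adjusted p 0.0131). PSMC1, another ATPase, was at 88.9, 108 and 91.7 CPM with DMSO and at 144, 133 and 119 CPM with CDDO-Me, also without overlap. Its change was 1.37-fold (log2 0.46, 95% interval 0.20 to 0.72, edgeR adjusted p 0.0377). The other 6 base genes, the ATPases PSMC2, PSMC3, PSMC4 and PSMC5, the scaffold PSMD2 and the ubiquitin receptor PSMD4, ran from -0.20 (PSMC4, edgeR adjusted p 0.386) to 0.40 (PSMC2, edgeR adjusted p 0.184). The base median was 0.01.

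In the 19S lid, PSMD12, a structural subunit, was the only gene called. It was at 43.6, 39.2 and 45.4 CPM with DMSO and at 61.6, 132 and 72.2 CPM with CDDO-Me, with the whole CDDO-Me range above the DMSO range. Its change was 2.07-fold (log2 1.05, 95% interval 0.50 to 1.60, edgeR adjusted p 0.0274). PSMD14, the enzyme that removes ubiquitin from substrates, was at 82.9, 90.5 and 96.1 CPM with DMSO and at 82.4, 167 and 128 with CDDO-Me (log2 0.48, edgeR adjusted p 0.205). The lowest lid value was that of PSMD8 (log2 -0.29, 95% interval -0.53 to -0.05, edgeR adjusted p 0.125). PSMD3, PSMD6, PSMD7, PSMD11 and PSMD13, which form most of the lid's frame, lay from -0.14 (PSMD3) to 0.33 (PSMD6). The lid median was 0.25, and the corrected class medians given with the GC values differ from it and from the base median. Across the 36 genes, 6 lay wholly above and 6 wholly below the DMSO libraries, beside 15.5% and 16.3% of all tested genes.

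**Figure D2:**
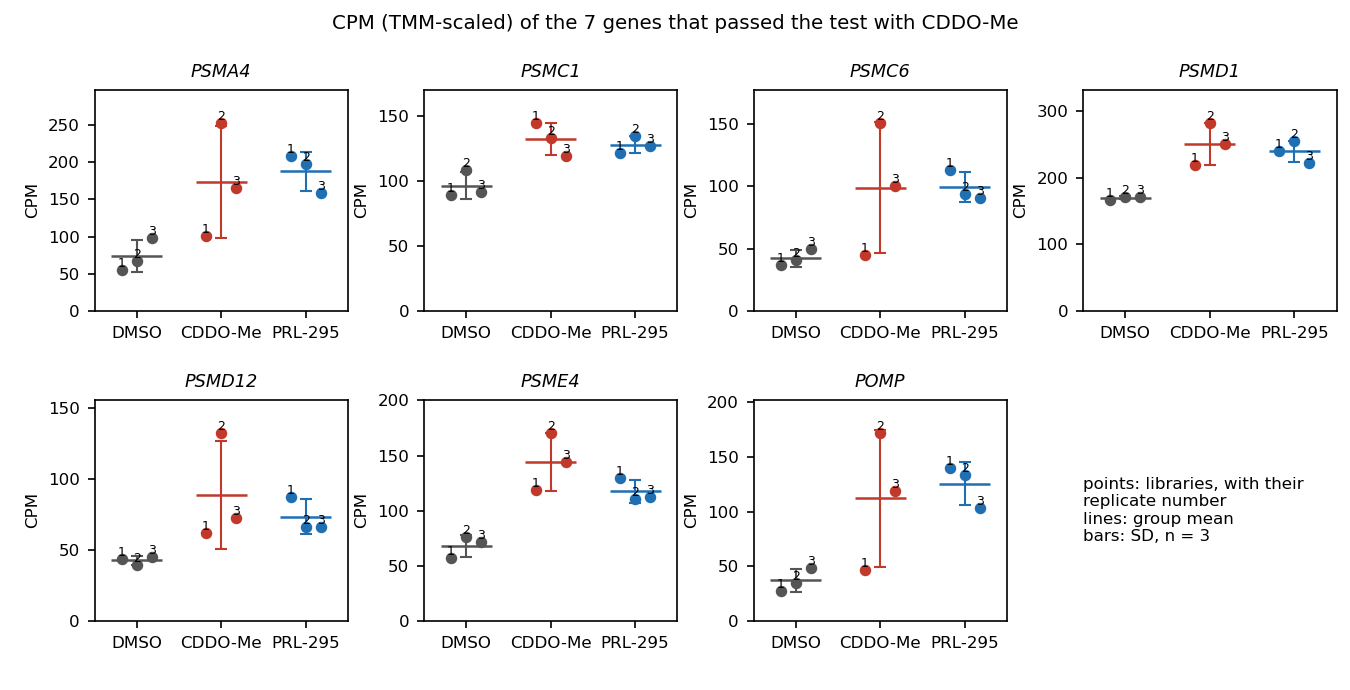
TMM-scaled CPM of the 7 genes called with CDDO-Me, in each of the 9 libraries. Points are libraries, horizontal lines are group means of 3 and error bars are SD. CDDO-Me 1 is the lowest CDDO-Me library for POMP (46.7 CPM), PSMC6 (45.2 CPM), PSMA4 (101 CPM), PSME4, PSMD1 and PSMD12. For PSMC1 it is the highest. The PRL-295 libraries of all 7 genes lie above the DMSO libraries.

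The number of calls depended on single libraries, for these genes as for all. Without CDDO-Me 1 it was 10 in place of 7, while the share of all genes called higher went from 4.65% to 9.08%. Without CDDO-Me 2, DMSO 1 or DMSO 2 it was 1, PSME4 each time, and the shares of all genes were 1.84%, 1.32% and 1.17%. Without DMSO 3 or CDDO-Me 3 it was 4, with shares of 1.81% and 2.88%. PSME4 was called in all 21 alternatives; a fit of the 6 libraries compared called 2 (PSMD1 and PSME4), beside 4.42% of genes, DESeq2 called the same 7, beside 8.44%, and a fit without a filter 9, beside 5.74%.

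Antisense genes and pseudogenes touched some of the called members. NRDE2, on the opposite strand, covers 75.8% of the exonic bases of PSMC1 (chr14:90256495-90275429, plus strand). Whether the counting used strand was not given in the sources used here, so reads of the 2 genes may not be told apart. NRDE2 averaged 648 counts per library and PSMC1 averaged 3325, and NRDE2 had a log2 fold change of -0.35 with CDDO-Me (edgeR adjusted p 0.243). The 13 PSMC1 pseudogenes in the table together held 1.72% as many counts as PSMC1. HTR2B overlaps 10.8% of PSMD1 (chr2:231056864-231172827, plus strand) and averaged 2.67 counts. POMP (chr13:28659104-28678925), PSMA4 (chr15:78540405-78552419), PSMC6 (chr14:52707172-52728587) and PSMD12 (chr17:67337916-67366627) shared 0% of their exonic bases with another gene.

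The antioxidant response element, bound by NRF2 and NFE2L1 with small MAF proteins, has the core TGACNNNGC. This pattern was searched on both strands of RefSeq promoter windows (GRCh38.p14, 250 bases before to 50 after the gene start), which exist for 30 of the 36 genes. It was present in 10 of the 30 (33.3%), beside 16.1% of 27305 genes with a window. Among the 7 genes called with CDDO-Me 4 held it, and among the 23 others with a window 6 did. The 4 called genes carry the following windows, printed because these genes changed, 5′ to 3′ with the match in capitals on the strand where it reads TGACNNNGC.
PSMA4: gggcacgaTGACTCTGCaccgcctc
PSMD12: acaaaaccTGACGCTGCaggctgga
PSME4: tctgctggTGACGCTGCagccgccg
PSMD1: gaggcgacTGACTGAGCag
The PSMA4 match is at chr15:78540652-78540676 (plus strand), centred 122 bases before the RefSeq gene start. Distances here are from that start, which can differ from the gene bounds in the deposited table, as it does for PSMA4, PSMD12, PSME4 and PSMC5. The PSMD12 match is at chr17:67366726-67366750 (minus strand), 161 bases before it. The PSME4 match is at chr2:53971011-53971035 (plus strand, opposite to the gene), 30 bases before it, and the PSMD1 match is at chr2:231056898-231056916 (plus strand), 43 bases after it. PSMD12 and PSME4 carry the same 9 bases in capitals. Matches also stood in genes that were not called, among them PSMB3 and PSMC5, shown for contrast.
PSMB3: ctccgtttTGACTTTGCaaccaaac
PSMC5: ggcggcgcTGACACAGCagatccgg
These lie at chr17:38752629-38752653 (plus strand) and chr17:63827656-63827680 (minus strand, opposite to the gene), centred 100 and 53 bases before the start. The more specific form TGACTCAGC, which has the same length and is itself a match to TGACNNNGC, was in 0 of the 30 windows and in 0.689% of all genes. A match is a description of these letters only.

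With PRL-295, 0 of the 36 genes passed the same test against DMSO, beside 0.462% of all tested genes that rose and 0.222% that fell. At an unadjusted edgeR p below 0.05, 16 of the 36 were higher and 0 lower, beside 7.58% and 5.31% of all tested genes. Of the 36, 33 had a positive log2 fold change, and the median was 0.35 (0.34 without PSMA1, PSMA2 and PSMA6), beside -0.01 over all tested genes. In 19 genes all PRL-295 libraries lay above all DMSO libraries and in 0 below, beside 13.5% and 13.7% of all tested genes. This comparison and the one of CDDO-Me share their DMSO libraries.

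Leaving aside the few-count genes PSMA1, PSMA2 and PSMA6, POMP and PSMA4 had the largest fold changes with PRL-295. POMP was at 140.3, 133 and 103 CPM, far above its DMSO maximum of 48.6 (log2 1.76, 95% interval 0.92 to 2.59, edgeR adjusted p 0.0716). PSMA4 was at 208, 197 and 158 CPM (log2 1.35, 95% interval 0.69 to 2.00, edgeR adjusted p 0.0794). PSME4 was at 129, 111 and 112 CPM (log2 0.78, 95% interval 0.44 to 1.13, edgeR adjusted p 0.0511). The 3 PRL-295 libraries were close together for each of these genes and did not overlap DMSO.

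Among the other assembly chaperones, PSMG2 was at 17, 19.8 and 26.0 CPM with DMSO and at 41.6, 34.5 and 35.4 with PRL-295 (log2 0.83, 95% interval 0.40 to 1.25, edgeR adjusted p 0.0976). PSMG1 was at 57.1, 70.4 and 54.3 CPM with PRL-295 (log2 0.78, edgeR adjusted p 0.103). Neither overlapped its DMSO range, while PSMG3 did (log2 0.07, edgeR adjusted p 0.930). The class medians with PRL-295 were 0.81 for the chaperones, 0.42 for the alpha subunits (0.50 without PSMA1, PSMA2 and PSMA6), 0.36 for the lid, 0.20 for the beta subunits and 0.13 for the base. In each class the values were spread. The alpha subunits ran from PSMA6 (log2 -0.40) to PSMA2 (1.64), both of few counts, and the beta subunits from PSMB6 (0.02) to PSMB1 (0.36). The base ran from PSMC3 (-0.06) to PSMC6 (1.23, edgeR adjusted p 0.135), and the lid from PSMD3 (-0.08) to PSMD12 (0.78, edgeR adjusted p 0.213). The catalytic subunits PSMB5 and PSMB7 had log2 fold changes of 0.20 and 0.26, with edgeR adjusted p of 0.593 and 0.421.

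The count of 0 depended on the test and on the libraries that set the spread. DESeq2 on the same counts called 7 of the 36 higher with PRL-295 (POMP, PSMA4, PSMC6, PSMD1, PSME4, PSMG1 and PSMG2), beside 2.55% of all tested genes, and a fit of the 6 PRL-295 and DMSO libraries alone called 8, beside 3.21%. Without a filter on low counts 10 were called, beside 2.25%. Without CDDO-Me 1 or CDDO-Me 2, which enter this comparison through the shared estimate of the spread and the filter, 7 and 6 genes were called, beside 2.53% and 1.25% of all genes in those fits.

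**Figure D3:**
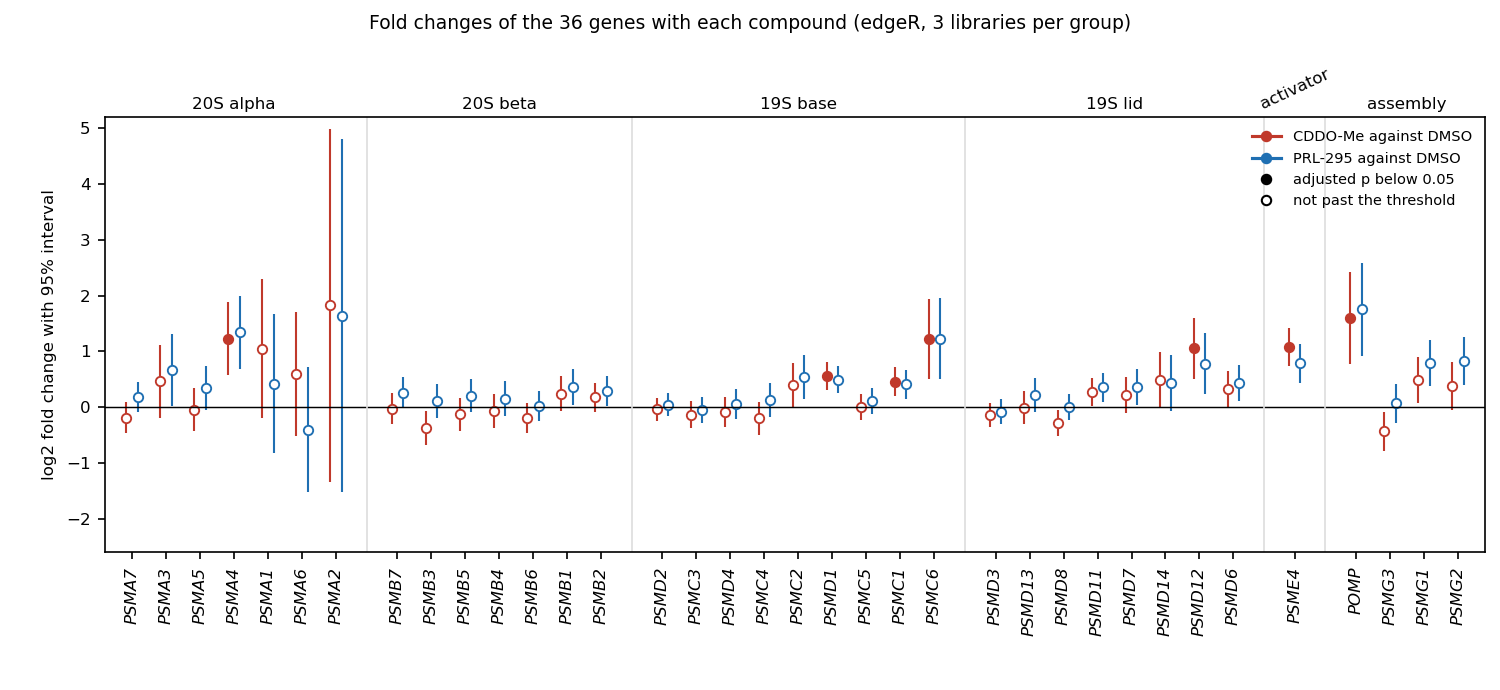
Log2 fold changes of the 36 genes against DMSO with 95% intervals, for CDDO-Me and PRL-295, by class; filled points passed an edgeR adjusted p of 0.05. The 7 filled points all belong to CDDO-Me and lie above 0, and 33 of the 36 PRL-295 points lie above 0; both comparisons use the same 3 DMSO libraries.

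PRL-295 was then set directly against CDDO-Me, at doses that differ. By edgeR 0 of the 36 genes differed, beside 0.905% of all tested genes that were higher with PRL-295 and 0.684% that were lower. At an unadjusted p below 0.05 the edgeR test had 8 higher and 0 lower, beside 9.21% and 8.01% of all tested genes. DESeq2 called 1, PSMB3, a noncatalytic beta subunit, as higher with PRL-295, beside 3.57% of all tested genes, and so did edgeR without a filter, beside 1.92%. PSMB3 was at 166, 213 and 213 CPM with CDDO-Me and at 250.3, 319 and 262 with PRL-295 (log2 0.49, 95% interval 0.19 to 0.80, edgeR adjusted p 0.103). Its PRL-295 libraries lay above all CDDO-Me libraries. The class medians were 0.37 for the chaperones, 0.22 for the beta subunits, 0.12 for the alpha subunits (0.28 without PSMA1, PSMA2 and PSMA6), 0.09 for the lid and 0.08 for the base. For the genes called with CDDO-Me, the 95% intervals of the difference were -0.65 to 0.97 for POMP, -0.52 to 0.76 for PSMA4, -0.64 to 0.04 for PSME4, -0.70 to 0.72 for PSMC6, -0.82 to 0.27 for PSMD12, -0.31 to 0.18 for PSMD1 and -0.31 to 0.21 for PSMC1. Differences of about 1.5-fold or more between the compounds thus remained within the intervals of 5 of these 7 genes.

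By library, the classes did not move as a unit. The median of a class was taken over its members' log2 ratios to their own DMSO mean, without PSMA1, PSMA2 and PSMA6. The alpha median was -0.36 in CDDO-Me 1 but 0.50 and 0.38 in CDDO-Me 2 and 3, and the lid median was -0.07, 0.41 and 0.28. CDDO-Me 1 was thus near or below DMSO for these classes, where the DMSO libraries themselves ran from -0.33 to 0.27 (alpha) and from -0.09 to 0.09 (lid). The beta median stayed between -0.21 and 0.02 in the CDDO-Me libraries and the base median between 0.01 and 0.04. With PRL-295 the medians were 0.47 to 0.57 for alpha, 0.25 to 0.36 for lid, 0.07 to 0.40 for beta and -0.01 to 0.27 for base. PRL-295 2 was the highest library for both beta and base.

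The fold changes followed the GC content of the genes. Across the 33 genes other than PSMA1, PSMA2 and PSMA6, the correlation of GC content with the log2 fold change was -0.73 with CDDO-Me and -0.66 with PRL-295. Over all 16239 tested genes the same correlations were -0.36 and -0.30. These are descriptions across genes measured in the same libraries, which themselves differed in GC trend as given above. The 7 genes called with CDDO-Me had a median GC content of 41.5%, the other 29 members 48.2% and all tested genes 49.2%. The beta subunits had a class median of 49.9%, and POMP stood at the low end of the called genes with 34.6%. At a boundary of 45% GC, chosen after the values were seen, 6 of 13 members below it rose with CDDO-Me, beside 9.08% of all tested genes there. Above it 1 of 20 members rose, which was PSMC1, beside 2.33% of genes there.

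When each library was corrected for GC content and gene length, 4 of the 7 calls with CDDO-Me were kept (PSMA4, PSMC1, PSMD1 and PSME4), beside 3.91% of all tested genes that then rose. POMP had a corrected log2 fold change of 0.87 (edgeR adjusted p 0.114), PSMC6 of 0.62 (edgeR adjusted p 0.171) and PSMD12 of 0.47 (edgeR adjusted p 0.0984). PSMA4 was at 0.86 (edgeR adjusted p 0.0473) and PSME4 at 0.66 (edgeR adjusted p 0.0170) after it. With PRL-295 the same correction gave 3 calls, POMP (log2 1.52, edgeR adjusted p 0.0319), PSMA4 (log2 1.178, edgeR adjusted p 0.0322) and PSMG2 (log2 0.85, edgeR adjusted p 0.0421), beside 0.733% of genes. The correlation across the 33 genes became -0.01 with CDDO-Me and -0.49 with PRL-295. In the direct comparison it went from 0.49 to -0.68, so after the correction the members had a relation to GC content of the opposite sign. Over all tested genes that correlation went from 0.17 to 0.003. The median of the 36 genes became 0.16 with CDDO-Me and 0.19 with PRL-295, beside 0.02 and -0.01 over all tested genes. The order of the classes also changed with the correction. With CDDO-Me the base median went from 0.01 to 0.18 and the lid median from 0.25 to 0.05, so that the base lay above the lid. The beta median went from -0.07 to 0.05, the chaperone median from 0.43 to 0.56 and the alpha median from 0.59 to 0.23, or from 0.21 to 7.04e-05 without PSMA1, PSMA2 and PSMA6. With PRL-295 the corrected medians were 0.70 for the chaperones, 0.22 for the alpha subunits (0.28 without those 3), 0.22 for the lid, 0.17 for the base and 0.08 for the beta subunits. In the direct comparison they were 0.25 for the chaperones, 0.09 for the alpha subunits (0.41 without those 3), 0.09 for the lid, 0.03 for the beta subunits and -0.05 for the base.

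**Figure D4:**
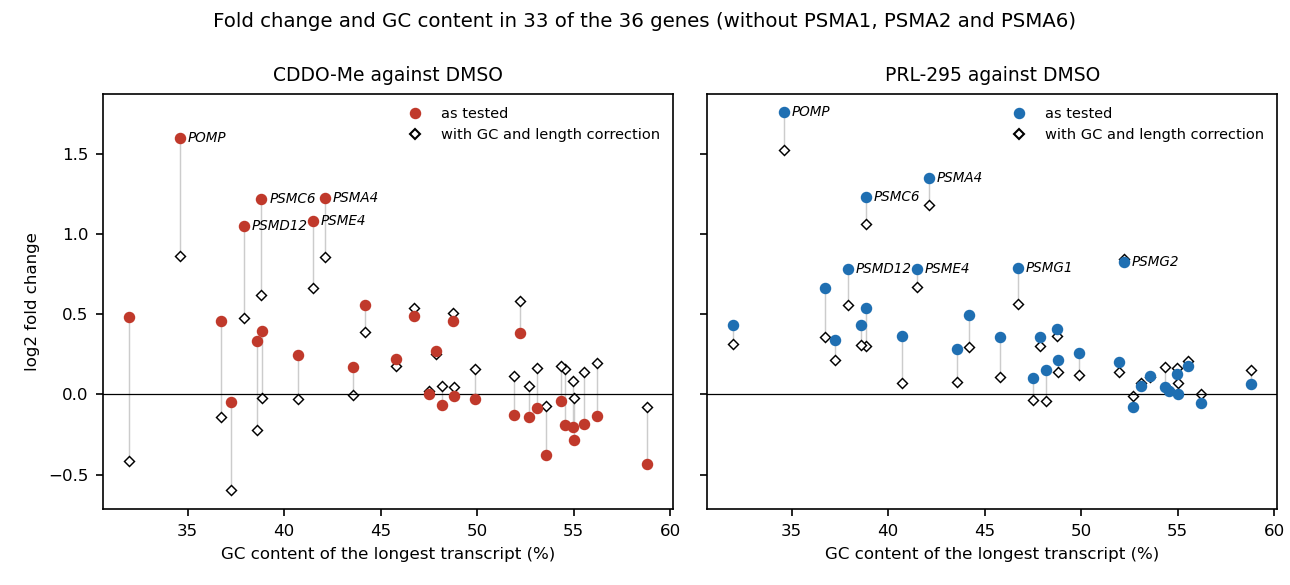
Log2 fold change against DMSO (vertical axis) and GC content of each gene's longest transcript in percent (horizontal axis), for each compound, for the 33 genes other than PSMA1, PSMA2 and PSMA6. Filled circles are values as tested and open diamonds are values after the GC and length correction. As tested, genes of low GC content lie higher in both panels, with correlations of -0.73 (CDDO-Me) and -0.66 (PRL-295) across these genes.

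Of 47 other genes of the pathway found in the table, 45 were tested, and with CDDO-Me 5 of them rose and 4 fell, beside 4.65% and 4.57% of all tested genes, while with PRL-295 and in the direct comparison 0 passed the edgeR test. The 3 inducible catalytic subunits, which replace PSMB5, PSMB6 and PSMB7 in the immunoproteasome, all fell with CDDO-Me. PSMB8, the counterpart of PSMB5, was at 99, 93.8 and 118 CPM with DMSO, at 50.3, 59.5 and 68.2 with CDDO-Me and at 87.5, 119.8 and 83 with PRL-295. Its CDDO-Me libraries were all below its DMSO libraries (log2 -0.80, edgeR adjusted p 0.016), and its PRL-295 libraries overlapped them. PSMB9 (log2 -0.78, edgeR adjusted p 0.027) and PSMB10 (log2 -0.73, edgeR adjusted p 0.025) also had no overlap between CDDO-Me and DMSO. After the GC and length correction these values were -0.52 for PSMB8, -0.72 for PSMB9 and -0.36 for PSMB10, with edgeR adjusted p of 0.0276, 0.064 and 0.188. PSMB8, PSMB9 and PSMB10 passed in 16, 13 and 14 of the 21 alternatives.

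The ratio of each standard catalytic subunit to its inducible counterpart had its highest group mean with CDDO-Me. The FPKM ratio of PSMB5 to PSMB8 was 2.96, 3.43 and 2.96 in the DMSO libraries, 4.88, 5.25 and 4.72 with CDDO-Me and 3.86, 3.53 and 4.16 with PRL-295. The ratio of PSMB6 to PSMB9 averaged 6.97 ± 0.94 (SD, n = 3) with DMSO, 10.4 ± 1.02 with CDDO-Me and 7.83 ± 0.10 with PRL-295. For PSMB7 to PSMB10 the means were 18.5 ± 2.93, 30.0 ± 4.88 and 25.1 ± 3.47. In each pair all CDDO-Me libraries exceeded all DMSO libraries. All PRL-295 libraries also exceeded all DMSO libraries, by small margins, for PSMB5 to PSMB8 and PSMB7 to PSMB10, but not for PSMB6 to PSMB9. The ratios describe the tests of their parts given above and were not tested themselves.

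**Figure D5:**
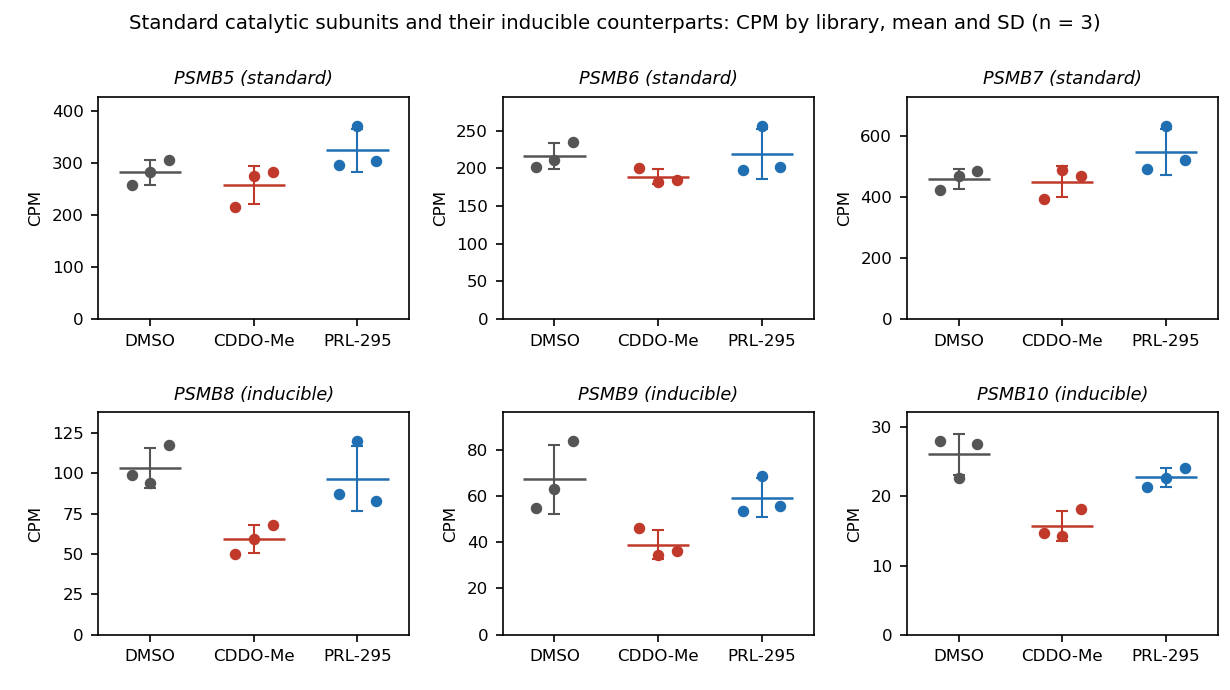
CPM of the standard catalytic subunits PSMB5, PSMB6 and PSMB7 and of their inducible counterparts PSMB8, PSMB9 and PSMB10 in each of the 9 libraries. Points are libraries, horizontal lines are group means of 3 and error bars are SD. The inducible subunits are lower in every CDDO-Me library than in every DMSO library, and so, narrowly, is the standard subunit PSMB6. The standard subunits were not called.

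The other genes that changed with CDDO-Me act on or around the finished particle. AKIRIN2, which carries proteasomes into the nucleus, was at 56.2, 51.4 and 48.3 CPM with DMSO and at 72.5, 82.7 and 79.5 with CDDO-Me (log2 0.59, edgeR adjusted p 0.016). USP14, a ubiquitin protease of the 19S cap (log2 1.02, edgeR adjusted p 0.041), ZFAND5, a proteasome-binding activator (0.79, 0.010), UBQLN1, a ubiquitin shuttle (0.57, 0.015), and UBXN7, a cofactor of the p97 unfoldase (0.92, 0.013), also rose. Of these 5, AKIRIN2 was the one with a GC content above 45%, at 53.7%, and its corrected value was 0.87. The corrected values of the other 4 lay from -0.02 (UBQLN1) to 0.43 (UBXN7), and none of the 4 passed. PSMF1, an inhibitor of the core, fell slightly (log2 -0.34, edgeR adjusted p 0.047), and passed in 6 of the 21 alternatives. USP14 passed in 8 of them, UBQLN1 in 14, AKIRIN2 and UBXN7 in 17 each and ZFAND5 in 18. None of the 5 other assembly chaperones and none of the 4 genes of NFE2L1 processing passed the edgeR test. NFE2L1 itself had a log2 fold change of -0.15 (edgeR adjusted p 0.528), and DDI2, the protease that activates it, had 0.52 (edgeR adjusted p 0.0585).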

How the data were processed

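The labels' protocols and the submitters' processing notes name hg38, paired-end alignment with STAR 2.5 and gene counts from HTSeq 0.6.1; the notes list further tools without their role. The annotation release, the strand setting and the rule for reads that fit several genes were not given in the sources used here. The deposited counts are the authors' raw reads per gene. The deposited FPKM values are the authors', made from count and gene length per the labels, and equalled that formula for 100% of nonzero values within 0.1%. Coordinates and gene lengths are those of the deposited table.

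Counts were tested with edgeR 4.0.16 (quasi-likelihood, filterByExpr by group, TMM; R 4.3.3) in a single fit of all 9 libraries, with Benjamini-Hochberg adjustment over 16239 genes in each of 3 comparisons and a threshold of 0.05. CPM are TMM-scaled, and intervals are 95% intervals of the log2 fold change. Library totals of 23383800 to 32942156 set the precision; floors of 3 counts cover counting error only. Exon overlaps and GC content came from GENCODE release 29, with GC content taken from the longest transcript of each gene, and promoters from RefSeq. The fit was tested on simulated data. Alternatives were DESeq2 1.42.0, scaling by RLE or by library size alone, leaving out the filter or asking for 1 CPM in 3 libraries, a fold threshold of 1.5, limma 3.58.1 on log2(FPKM + 1) or log2(FPKM + 0.1), fits of 6 libraries, a replicate block, a GC and length correction (splines with 5 degrees of freedom), both together, and leaving out each library.

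The members and lists were chosen with earlier results of these data known. Named with values were all members called in any comparison, the extremes of each class in fold change and in FPKM, the catalytic subunits, PSME4 and the chaperones, and the called genes of the other pathway lists. PSMB11 and PSMA8 of those lists were not tested, with at most 1 count in a library. SEM1, ECPAS and UFD1 were matched under their older symbols.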

Additional observations from a re-analysis of the deposited data

How the results depend on the processing

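For CDDO-Me against DMSO, the number of members called (7) became 2 in a fit of the 6 libraries compared, 4 with the GC and length correction and 3 with limma at either pseudocount; leaving out single libraries gave 1 to 10. DESeq2, both other scalings, no filter, the 1 CPM minimum and the 1.5-fold threshold kept it between 5 and 9. For PRL-295 against DMSO (0) it became 7 with DESeq2, 10 without a filter, 1 with the 1 CPM minimum, 8 with the 6 libraries and 3 with the GC and length correction; single libraries left out gave 0 to 7. For the direct comparison (0) it became 1 with DESeq2 and without a filter. The cause was not tested. Same-numbered libraries deviated from their group means with correlations of -0.137 to 0.104, and libraries of different numbers with -0.119 to 0.154. With 3 libraries per group, such values cannot settle whether the numbers mark pairs. A replicate block gave 3, 0 and 0 called members in the 3 comparisons, beside 416, 50 and 95 of 16239 genes called higher. With the GC and length correction it gave 2, 4 and 0, beside 534, 111 and 165. With limma, 560 and 536 of 16239 genes were higher with CDDO-Me at pseudocounts of 1 and 0.1. The 1 CPM minimum called 76 of 13607 genes higher with PRL-295. Of 756 values per comparison (36 genes under 21 alternatives), the sign changed in 49 for CDDO-Me, 25 for PRL-295 and 45 for the direct comparison, none of them called in either fit. Medians of the members and classes moved by more than their spread in 5, 6 and 7 of 126 values each, and the report gives those under the GC and length correction. Counts of 0 to 239 limit the precision for PSMA1, PSMA2 and PSMA6.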
